A study of Homo sapiens with 4 samples.

Results

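The unfolded protein response (UPR) and the folding machinery of the endoplasmic reticulum (ER) were examined in FOXK2 ChIP-seq of OVCAR5 cells, using 46 genes fixed by name. A gene counted as having a peak when its symbol was the nearest-gene name in a deposited peak list, and 33 of the 46 genes had at least 1 peak in either replicate, beside 54.4% of protein-coding genes. ChIP-seq sequences the DNA fragments that an antibody pulls down, here with an antibody against FOXK2, a forkhead transcription factor, and a peak is a position where such fragments pile up. OVCAR5 is an established ovarian cancer cell line, labelled as ascites derived and used at passage 4-6. Both groups, the FOXK2 immunoprecipitate (n = 2) and its input chromatin (n = 2), came from these cells in RPMI with 10% serum and no treatment or genetic change is labelled. The input libraries were not analysed here. Peak lists carry no expression, so the cell type label could not be checked against markers.

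Replicate 1 gave 12471 peaks and replicate 2 gave 27281, of which 25 and 49 were named for the 46 genes. Each peak carried a score that can be ranked only within its own list. The median score was 5.85 in replicate 1 and 7.29 in replicate 2, on separate scales. A score percentile below is the share of peaks of the same list that scored lower, and rank 1 is the highest score. A pair means a peak of each replicate with at least 1 bp in common. Only the FOXK2 peak lists were used, so FOXK2 was not tested against input and the values are descriptions.

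Proteins that enter the secretory route fold in the ER, and unfolded protein there activates sensors in the ER membrane. IRE1 (encoded by ERN1) splices the XBP1 mRNA, PERK (EIF2AK3) phosphorylates eIF2alpha and so slows translation while ATF4 is made, and ATF6 is cut by Golgi proteases to release a transcription factor. These arms raise chaperones, disulfide isomerases and the ER-associated degradation machinery, and secretory and tumor cells rely on them.

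The DNA under the strongest pairs is shown first because the values below refer to it. FOXK2 recognises the forkhead heptamer TGTTTAC, and a looser forkhead core, RYAAAYA (R is A or G, Y is C or T), includes it, since the reverse complement of TGTTTAC is one of its forms. Both were searched on both strands. The sequences are from hg38, plus strand, with capitals for the heptamer where the pair holds it and otherwise for the core. They are chr16:84116807-84116835 in MBTPS1, chr1:204398621-204398649 in PPP1R15B, chr11:46274060-46274160 upstream of CREB3L1, chr17:64082207-64082401 in intron 2 of ERN1, which is the whole stretch shared by its pair, chr16:56933046-56933146 in intron 1 of HERPUD1, chr19:48873106-48873134 in PPP1R15A, and chr2:88600046-88600146 in intron 2 of EIF2AK3.
MBTPS1: ccattcggggcTGTTTACtcccaactctc
PPP1R15B: gttttccagctTGTTTACacattgaggga
CREB3L1: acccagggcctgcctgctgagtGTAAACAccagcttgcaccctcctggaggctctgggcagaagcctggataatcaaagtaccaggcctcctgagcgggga
ERN1: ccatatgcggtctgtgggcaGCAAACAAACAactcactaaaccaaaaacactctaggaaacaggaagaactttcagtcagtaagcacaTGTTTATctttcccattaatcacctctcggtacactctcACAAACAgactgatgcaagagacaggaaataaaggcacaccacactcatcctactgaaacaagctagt
HERPUD1: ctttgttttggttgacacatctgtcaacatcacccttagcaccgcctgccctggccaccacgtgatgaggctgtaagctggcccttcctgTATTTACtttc
PPP1R15A: tctcgcgttgcTATTTACaatagttgtgt
EIF2AK3: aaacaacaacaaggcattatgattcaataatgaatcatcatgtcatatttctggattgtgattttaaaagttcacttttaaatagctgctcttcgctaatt
The MBTPS1, PPP1R15B and CREB3L1 stretches each show 1 heptamer. The ERN1 stretch of 195 bp held 4 cores and no heptamer, and the first capital run of it is made of overlapping cores. HERPUD1 and PPP1R15A showed 1 core each, and the EIF2AK3 stretch, printed as the contrast, showed none. The SYVN1 pair, not printed, held neither a core nor a heptamer either.

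Of the 46 genes, 16 had a pair, 2 had a peak in both lists without overlap, 2 had a peak in replicate 1 only, 13 in replicate 2 only and 13 in neither. The stress sensors and their partners had a peak in 6 of 6 cases, beside 54.4% of protein-coding genes, and in 5 of 6 by GENCODE, where WFS1 had none. A pair was named for 4 of these 6. Among the transcription factors of the response 3 of 8 had a pair (5 of 8 by GENCODE), and among eIF2alpha and its phosphatase subunits 2 of 3 (3 of 3 by GENCODE). A pair was named for 1 of 8 chaperones and secreted helpers, 1 of 5 protein disulfide isomerases and 1 of 4 J proteins. These folding roles together had 3 of 17 (17.6%), beside 25.5% of protein-coding genes, and 4 of 17 (23.5%), beside 27.3%, when peaks were assigned by GENCODE gene bodies as described further on. The ER-associated degradation genes had 4 of 10 (3 of 10 by GENCODE), and the translocon genes had 0 of 2 by either assignment. The roles hold between 2 and 10 genes each and the differences between them were not tested.

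**Figure D1:**
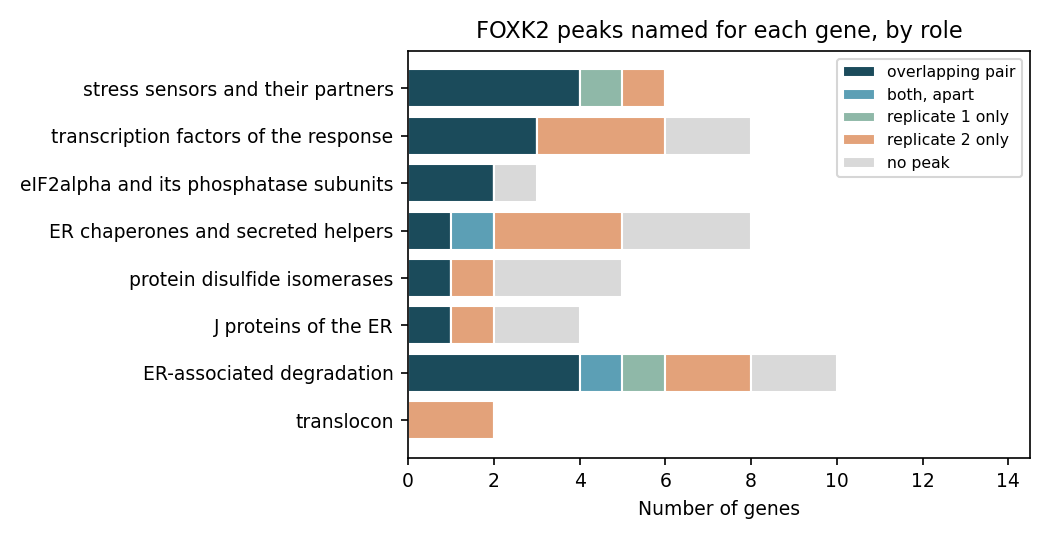
Number of genes of each role (x axis) by the kind of FOXK2 peak named for them, in 5 colours: overlapping in both replicates, in both but apart, in replicate 1 only, in replicate 2 only, or none. Names are those of the deposit, by which 33 of the 46 genes had a peak and 16 had an overlapping pair.

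Across the gene set, 20 of 46 genes had a peak in replicate 1 (43.5%, Wilson 95% interval 30.2% to 57.8%), beside 31.3% of 20056 protein-coding genes. In replicate 2 the count was 31 of 46 (67.4%, 53.0% to 79.1%) beside 51.7%, and in either replicate 33 of 46 (71.7%) beside 54.4%. A peak in both replicates was named for 18 genes (39.1%, 26.4% to 53.5%) beside 28.6%, and a pair for 16 (34.8%, 22.7% to 49.2%) beside 25.5%. The shares were thus above those of all coding genes, but by the deposited names and with the full lists the background lay within the interval for replicate 1, for both replicates and for the pairs. Among peaks at or above the median score, 15 genes had a peak in both replicates and 15 a pair (32.6% each, 20.9% to 47.0%). The background was then 17.7% and 17.1%, below that interval. With lists of equal length the counts were also 15 and 15, and the background of 23.3% and 21.3% lay within it. For peaks that the deposit annotated as promoter, the counts were 6 in replicate 1 beside 11.9%, 15 in replicate 2 (32.6%) beside 21.2%, 6 in both replicates (13.0%, 6.12% to 25.7%) beside 9.30%, and 6 with an overlapping promoter peak beside 9.02%. By these names the promoter share in both replicates was near the background, but under GENCODE starts it was 28.3%, beside 15.0%. The intervals cover counting error only. The 46 genes are a fixed list, chosen with earlier results of these data known. Whether the background lies inside or outside an interval is thus not a test.

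**Figure D2:**
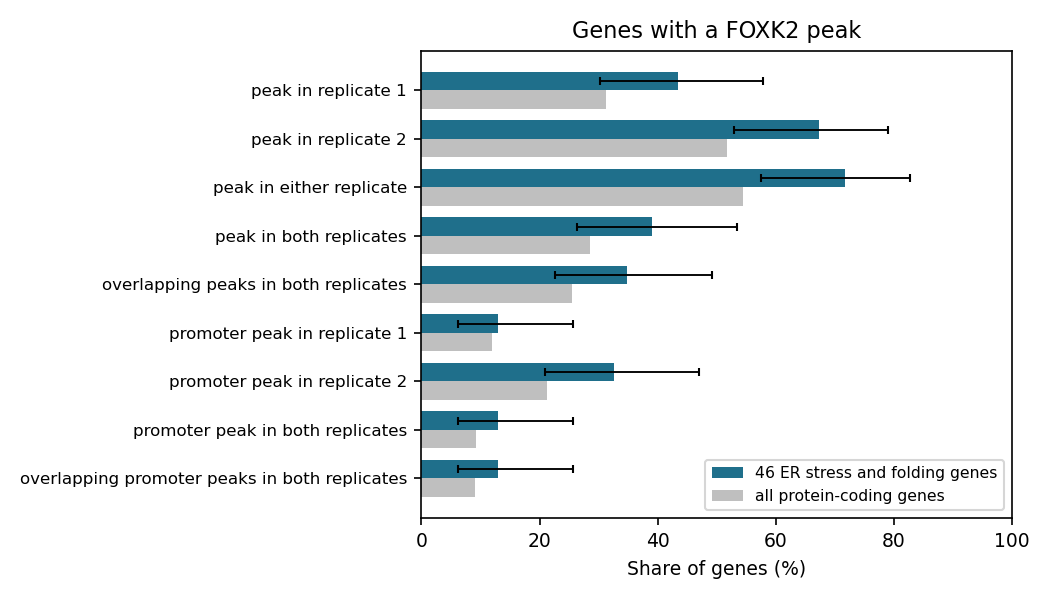
Share of genes (x axis, %) with a FOXK2 peak by each of 9 rules, for the 46 ER stress and folding genes (dark bars, with Wilson 95% intervals) and for 20056 protein-coding genes (grey bars). The dark bar for a pair is at 34.8% and the grey bar at 25.5%.

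A separate list of 50 further ER genes, such as oxidoreductases, translocon and glycosylation subunits, had a pair in 16 genes (32.0%), beside 25.5% of protein-coding genes, and a peak in replicate 2 in 37 (74.0%), beside 51.7%. Over these 16 genes the best-pair percentile, averaged over both lists, had a median of 70.5, with a lowest value of 6.39 and 3 genes at 90 or more. Examples of the stronger pairs were at the promoter of PPIB, an ER prolyl isomerase (percentiles 95.7 and 99.2 in replicates 1 and 2), and in intron 1 of EIF2AK1, the heme-regulated eIF2alpha kinase (ranks 603 and 750).

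Where a pair was present, it was often among the stronger ones. The best pair of the 16 genes had a median percentile, averaged over both lists, of 91.2, beside 71.7 for the 5111 protein-coding genes with a pair, and 8 of the 16 were at 90 or more, beside 1093 of the 5111 (21.4%). Coding genes with more than 1 pair enter with their best. The 16 genes were a median of 31817 bp long, all 46 were a median of 24713 bp and all coding genes 27441 bp, and the part of gene length in these counts was not tested.

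**Figure D3:**
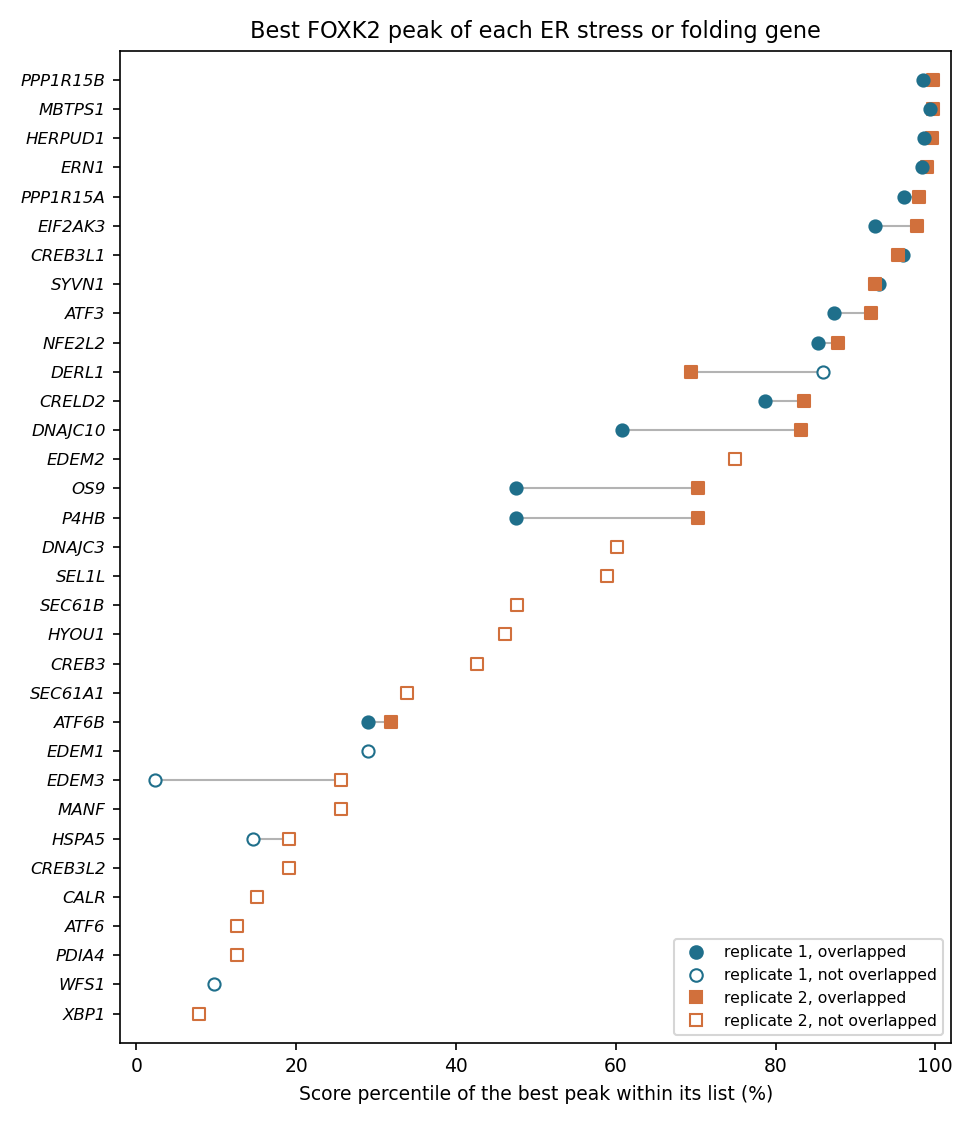
Score percentile (x axis, %) of the best peak of each of the 33 genes with a peak, in replicate 1 (circles) and replicate 2 (squares), filled where the peak overlapped a peak of the other replicate. Filled symbols crowd the right, from ATF6B at 29.0 and 31.9 to MBTPS1 at 99.3 and 99.7, and the genes with a replicate 2 peak alone lie between 7.79 and 74.9.

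By the percentile averaged over both lists, the highest pair of the set belonged to a partner of the stress sensors. MBTPS1, the protease that makes the first cut in ATF6, scored 29.8 in replicate 1 and 59.0 in replicate 2, at ranks 87 and 93. The pair lay in the 5′ UTR annotation, 145 and 136 bp from the TSS, and placed MBTPS1 at position 75 of the 5111 genes with a pair. Both replicates thus put it within the best 1% of their lists.

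ERN1, the sensor kinase and endoribonuclease that splices XBP1, had its pair in intron 2 of 21, at 47830 and 47869 bp from the annotated TSS. The score was 22.3 in replicate 1 (rank 209, percentile 98.3) and 39.1 in replicate 2 (rank 272, percentile 99.0). The position is far from the main start, but a GENCODE transcript of ERN1 starts 414 and 453 bp from the peak centres. Replicate 2 had 2 more ERN1 peaks, at 45381 bp (score 12.2, percentile 80.5) and 36933 bp (6.1, percentile 35.7), and each held the heptamer that the pair lacked. Neither overlapped a replicate 1 peak.

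EIF2AK3, the kinase that phosphorylates eIF2alpha, had a pair in intron 2 and another at its promoter. The intronic pair, 24854 and 24811 bp from the TSS, scored 13.0 and 28.4 (percentiles 92.5 and 97.7). The promoter pair, at -38 and 9 bp, scored 7.17 and 15.6 (65.1 and 88.8). In both replicates the intronic peak was the stronger one. It held no forkhead core but 1 AP-1 site (TGACTCA or TGAGTCA, which bind Fos and Jun proteins), found in 16.4% of all replicate 1 peaks and 16.6% of all replicate 2 peaks.

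The other sensors were weak. ATF6B, the homologue of ATF6, had a promoter pair at -90 and -40 bp with scores of 4.9 and 5.8 (percentiles 29.0 and 31.9), the lowest of the 16 genes by the mean percentile of the best pair. ATF6 itself had only an intronic replicate 2 peak at 66485 bp (score 4.46, percentile 12.6). WFS1, an ER membrane protein mutated in Wolfram syndrome, had only a replicate 1 peak (4.15, percentile 9.70), 55431 bp from its TSS and inside PPP2R2C in GENCODE.

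The arm that ends eIF2alpha phosphorylation had strong pairs in both regulatory phosphatase subunits. PPP1R15B, the constitutive subunit, scored 22.8 in replicate 1 and 61.4 in replicate 2, at ranks 189 and 77. The deposit called this pair intergenic, 13200 and 13178 bp from its TSS, while in GENCODE it lay in an exon of a PPP1R15B transcript with a start of the gene 2982 and 2960 bp away. A second pair lay at -5512 and -5467 bp (scores 4.72 and 8.18, percentiles 24.4 and 57.7), and 2 more replicate 2 peaks named for the gene were inside PIK3C2B.
PPP1R15A, the stress-induced subunit, scored 16.4 and 29.3 (percentiles 96.1 and 97.9) at 683 and 721 bp, which is 8 and 46 bp from a GENCODE start of the gene. Its pair held a core and an AP-1 site. EIF2S1, which encodes eIF2alpha, had no peak under its own name.

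**Figure D4:**
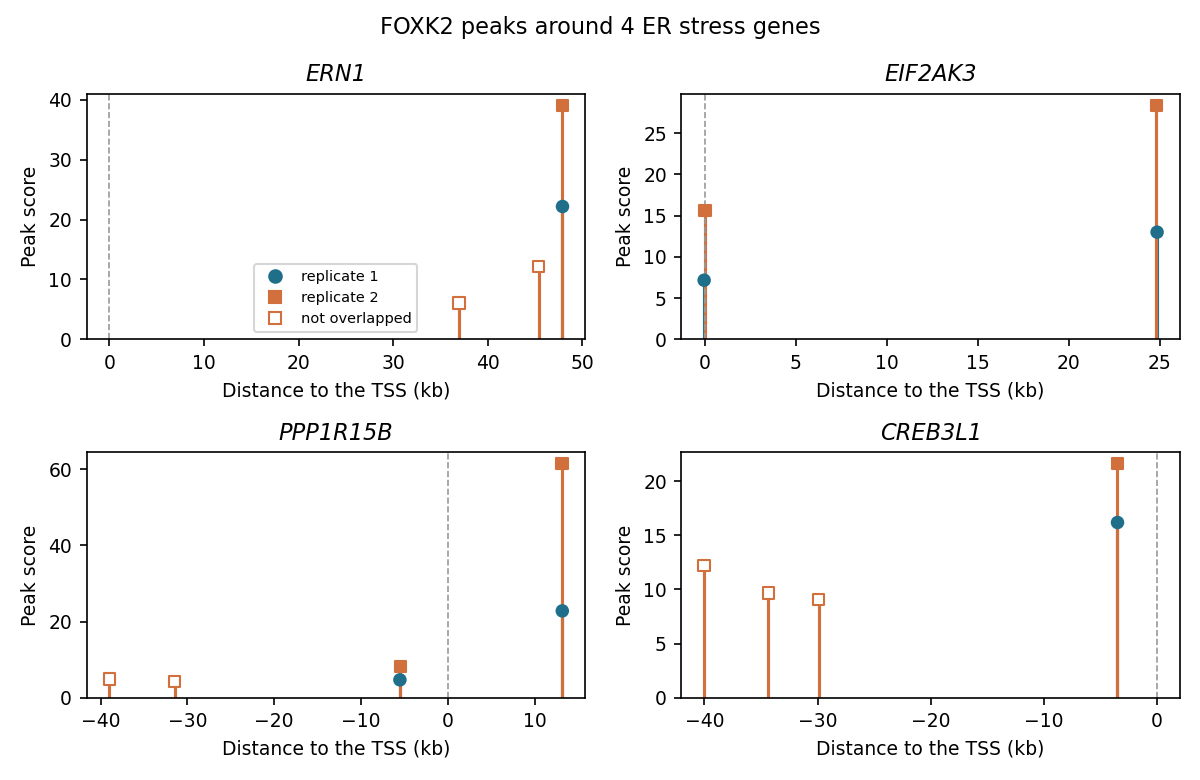
Peak score (y axis) against the distance from the TSS of the deposit in kb (x axis, dashed line at 0) for ERN1, EIF2AK3, PPP1R15B and CREB3L1, with replicate 1 as circles, replicate 2 as squares and open symbols where no peak of the other replicate overlapped. The highest peak of each gene is a filled pair, at 47830, 24854, 13200 and -3539 bp in replicate 1 in that order, and scores of the replicates are on separate scales.

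Among the transcription factors, CREB3L1, an ER-anchored factor released by proteolysis, had its pair upstream at -3539 and -3517 bp. It scored 16.2 and 21.6 (percentiles 96.0 and 95.3) and held the heptamer. Replicate 2 had 3 more peaks from -29895 to -40026 bp, with no partner.
ATF3, a stress-induced repressor and activator of the ATF family, had a promoter pair at 77 and 37 bp that scored 10.8 and 17.8 (87.3 and 91.9). Its other pair, in intron 1 of a longer transcript and -12274 and -12154 bp from the nearest TSS, scored 7.17 and 12.2 (65.1 and 80.5) and held the heptamer that the promoter pair lacked. NFE2L2, the oxidative stress factor NRF2 and a substrate of PERK, scored 10.2 and 15.0 (85.3 and 87.8) in its 5′ UTR, at 626 and 599 bp.

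XBP1, the factor made after splicing by IRE1, had only a replicate 2 promoter peak at -75 bp that scored 4.16 (percentile 7.79), the lowest best peak of the genes found in replicate 2 alone. CREB3 and CREB3L2, relatives of CREB3L1, had promoter peaks in replicate 2 only (percentiles 42.6 and 19.1). In GENCODE both were nearer to the start of another gene. The CREB3 peak was 155 bp from a start of TLN1 and at -248 bp from its own. The CREB3L2 peak was 11 bp from a start of AKR1D1 and at -227 bp from its own. ATF4, the factor translated when eIF2alpha is phosphorylated, and DDIT3, which encodes the death-promoting factor CHOP, had no peak under their own names.

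The ER-associated degradation genes were led by HERPUD1, a stress-induced ER membrane protein of the degradation complex. Its pair in intron 1, at 1000 and 1012 bp from the deposited TSS and 94 and 82 bp from a GENCODE start, scored 24.0 and 53.8, at ranks 174 and 120. SYVN1, the ubiquitin ligase HRD1, had a promoter pair at -86 and -72 bp with scores of 13.4 and 18.3 (percentiles 93.0 and 92.5). SEL1L, the adaptor of that ligase, had a replicate 2 peak only (8.33, percentile 58.9), which held the heptamer.
OS9, a lectin that hands over misfolded glycoproteins, had a promoter pair of middle strength at 54 and 64 bp (5.85 and 9.96, percentiles 47.5 and 70.3). DERL1, a derlin of the retrotranslocation channel, had a pair 53328 and 53474 bp away (7.17 and 9.82, percentiles 65.1 and 69.4) and a stronger replicate 1 peak near its start (535 bp, score 10.4, percentile 86.0) without a partner. The mannosidase-like EDEM genes had no pair: EDEM1 had a replicate 1 peak (percentile 29.0), EDEM2 a replicate 2 promoter peak (74.9), and EDEM3 peaks at separate places (2.36 and 25.6). DERL2 and DERL3 had no peak under their own names.

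By the deposited names the chaperones were mostly weak or without a peak. HSPA5, which encodes BiP, the main ER chaperone of the HSP70 family, had a replicate 1 peak at -2136 bp (score 4.34, percentile 14.6) and a replicate 2 promoter peak at -194 bp (4.91, percentile 19.1), and they did not overlap. CALR, the calcium-binding lectin calreticulin, had a replicate 2 promoter peak (4.61, percentile 15.1), and HYOU1, a nucleotide exchange factor for BiP, had another (6.99, percentile 46.1).
The only pair of this role belonged to CRELD2, a secreted stress-induced helper, at 16716 and 16667 bp (scores 8.87 and 13.2, percentiles 78.7 and 83.6). MANF, a secreted cofactor of BiP, had 2 replicate 2 peaks, both inside DOCK3. HSP90B1, the ER form of HSP90, the lectin CANX and SDF2L1, which works with BiP, had no peak under their own names. By GENCODE, HSP90B1 and CANX had peaks, as given further on.

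Among the disulfide isomerases P4HB, which encodes the classical isomerase, had the only pair, at its promoter, -350 and -332 bp from the TSS (5.85 and 9.96, percentiles 47.5 and 70.3). PDIA4 had a replicate 2 peak (4.46, percentile 12.6), and PDIA3, PDIA6 and TXNDC5 had none under their own names. Among the J proteins, which bring clients to BiP, DNAJC10 had a pair 73437 and 73487 bp upstream (6.79 and 13.1, percentiles 60.8 and 83.2). DNAJC3 had 2 replicate 2 peaks (best percentile 60.1). DNAJB9 and DNAJB11 had none under their own names, though both had promoter peaks by GENCODE, as given further on. The translocon subunits SEC61A1 and SEC61B had replicate 2 peaks only (best percentiles 33.9 and 47.7).

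The nearest-TSS rule gives a peak between divergent genes to 1 of them, so the peaks were also assigned with GENCODE, by a centre within the gene body or 5000 bp upstream. This gave a pair to 19 of the 46 genes (41.3%, 28.3% to 55.7%), beside 27.3% of 19138 coding genes. The background lay below the interval here, which is a description and not a test. Of the 19 genes 13 had a pair by the deposited names too. An overlapping promoter peak, from 1000 bp upstream to 100 bp downstream of a GENCODE start, was assigned to 13 genes (28.3%, 17.3% to 42.5%), beside 14.4%. The promoter count was thus 13 in place of 6, and the background lay below its interval, again as a description only. The genes that follow were singled out after their values were seen. DNAJB9, the stress-induced J protein ERdj4, had a pair deposited under THAP5, -83 and -76 bp from the DNAJB9 start and -16 and -23 bp from that of THAP5. Its scores were 22.1 and 51.2 (percentiles 98.2 and 99.5), so by this assignment it stood with the strongest pairs.
EIF2S1 had a pair deposited under ATP6V1D that scored 16.6 and 32.1 (96.3 and 98.3) at -496 and -488 bp from its own start. DDIT3 had a pair deposited under MBD6 (7.92 and 15.2, percentiles 72.1 and 88.1), at -609 and -392 bp. HSP90B1 (percentiles 40.9 and 83.2), PDIA3 (44.2 and 58.9) and CREB3L2 (79.9 and 94.2) were the other genes with a pair by GENCODE only. DNAJC10, DERL1 and CRELD2 had one by the deposited names only. Replicate 2 peaks without a partner lay 30 bp from a start of HSP90B1 (percentile 75.6), in CANX (78.2 and 25.6) and at the DNAJB11 promoter (81.5 and 77.6). DERL2 had a replicate 1 peak without a partner (19.4). No peak was found by either assignment for ATF4, PDIA6, DERL3, SDF2L1 and TXNDC5. Which gene of a divergent promoter a peak belongs to cannot be told apart from these lists.

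Of the 25 replicate 1 peaks 19 overlapped a replicate 2 peak (76.0%, 56.6% to 88.5%), beside 74.9% of all peaks, and of the 49 replicate 2 peaks 19 did (38.8%, 26.4% to 52.8%), beside 34.2%. Both shares were near the background. At percentile 90 or more, 8 of 8 replicate 1 peaks and 9 of 9 replicate 2 peaks of the set were overlapped, beside 99.5% and 91.2% of all peaks there. Below 25 the counts were 1 of 4 and 0 of 13, beside 52.4% and 4.84%. Overlap thus rose with the score in the lists as a whole too. The genes found in replicate 2 alone had a median best percentile of 33.9.
Peaks of the 46 genes lay nearer to a TSS than the lists at large. Of them 11 of 25 in replicate 1 and 20 of 49 in replicate 2 were within 1000 bp, beside 3314 of 12471 and 5998 of 27281 peaks in all, and the median distance was 3539 and 3517 bp, beside 16139 and 20161 bp. Of the 19 pairs 6 were promoter peaks in the deposit, beside 22.9% and 23.1% of all overlapped peaks in replicates 1 and 2. Of the same pairs 11 were within 500 bp of a GENCODE start of the same gene, beside 27.9% of 8387 pairs.

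**Figure D5:**
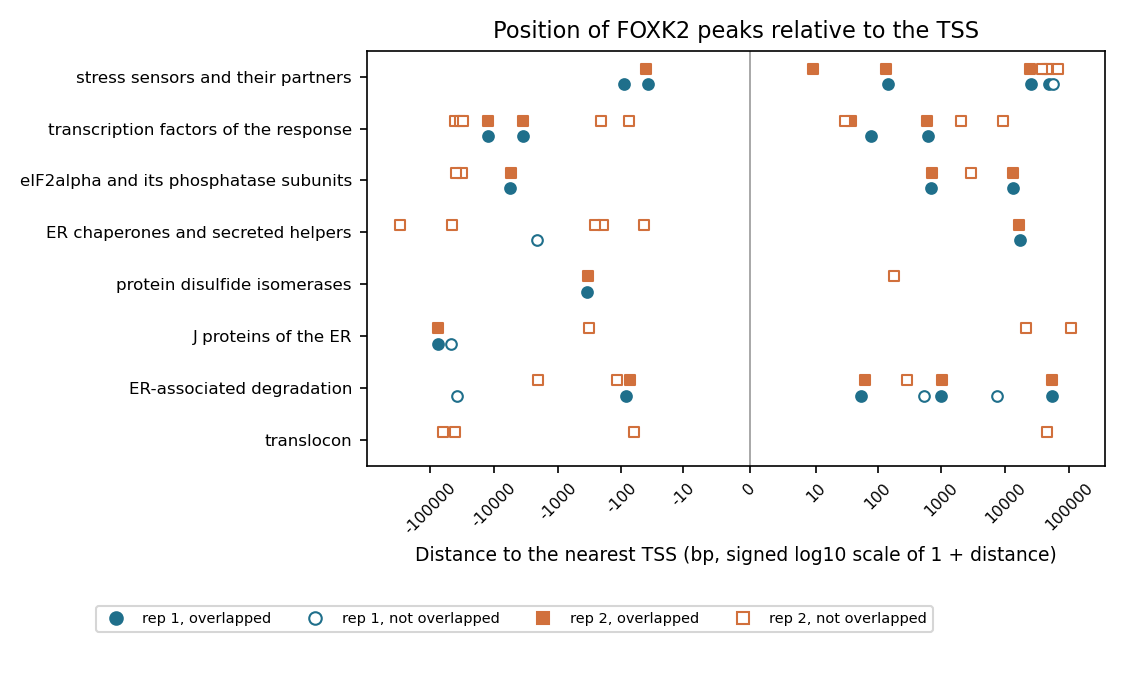
Distance of each peak of the 46 genes from the nearest TSS (x axis, bp, signed log10 of 1 + distance) by role, for replicate 1 (circles) and replicate 2 (squares), filled where overlapped by the other replicate. In replicate 1 11 of 25 peaks and in replicate 2 20 of 49 lie within 1000 bp of the line at 0.

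The forkhead heptamer was found, no more than 100 bp from the peak centre, in 4 of 25 peaks of replicate 1 (16.0%, 6.40% to 34.7%), beside 30.5% of all peaks, and in 14 of 49 peaks of replicate 2 (28.6%, 17.8% to 42.4%), beside 28.2%. In windows 2000 bp to each side of the same peaks it was in 1 of 50 (2.00%) and 1 of 98 (1.02%). Of the overlapped peaks 4 of 19 (21.1%) held it in each replicate, beside 34.3% of all overlapped peaks in replicate 1 and 34.9% in replicate 2, and these were MBTPS1, PPP1R15B, CREB3L1 and the intronic ATF3 pair. The other 10 replicate 2 peaks with a heptamer had no partner in replicate 1 and included both further ERN1 peaks and the only ATF6 peak. The looser core lay in 13 of 25 (52.0%) and 21 of 49 (42.9%), beside 57.9% and 56.9% of all peaks. Away from the peaks it was common too, in 15 of 50 and 26 of 98 of the windows to each side.

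The promoters of the genes, from 250 bp before to 50 bp after the start in RefSeq, were available for 43 of the 46 genes. None of the 43 held the heptamer, beside 2.61% of 15843 coding promoters. The ER stress element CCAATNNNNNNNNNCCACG, through which ATF6 acts, was in 6 of 43 (14.0%), namely CALR, CANX, CRELD2, HSP90B1, HSPA5 and XBP1, beside 0.120% of all. The same element lay under the replicate 2 peaks of CALR and XBP1, both low in the list, and under 0.0330% of all replicate 2 peaks. The core TGACGTG of the UPR element was in 2 of 43, DNAJC10 and HYOU1, beside 2.11%. In the list of further ER genes, 2 of 42 promoters (4.76%) held the ER stress element and 5 of 42 (11.9%) the UPR core. A match to these letters is a description of the sequence and not a measured site.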

How the data were processed

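ChIP-seq peaks of 2 FOXK2 libraries from OVCAR5 cells were analysed from the lists the authors deposited. Per the paper's methods, the authors mapped single-end reads to hg38 with Bowtie2 2.2.6 and called peaks with HOMER 4.10. The authors also compared FOXK2 with input reads per peak, using DESeq2, but the peak-calling options and whether the input served in calling were not given in the sources used here. Each deposited list gives peak positions, a peak score (scaled per library and ranked only within its list), a focus ratio, which is a fraction, and the nearest TSS with its annotation. The depth of the reads is unknown. Scores below 10 were whole multiples of a step, within 0.006, 0.1886 in replicate 1 and 0.1487 in replicate 2, and the weakest peaks were 16 and 21 steps high.

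The 46 genes and the list of 50 further ER genes were chosen with earlier results of these data known. All 46 genes are accounted for, by role, and those with a pair are given with both scores, percentiles or ranks, and distances. Shared peaks overlapped by at least 1 bp. Shares carry Wilson 95% intervals. Protein-coding genes and promoters were from RefSeq, and gene bodies and starts from GENCODE release 44. Motifs were searched within 100 bp of the peak centre. No test was run, since only peak lists of the FOXK2 libraries were used and no read counts of FOXK2 or input. The labels name the replicates without saying that they came from separate cultures, while the methods call them biological. The counting of overlaps and of motif matches was checked on simulated data. Alternatives were to leave out unplaced contigs, to keep peaks at or above the median score, equal list lengths, stricter overlap, limits on the TSS distance, GENCODE assignment, other motif windows and the looser core, overlapped peaks only, and leaving out each replicate. Python 3.11.15, numpy 2.4.6, pandas 2.3.3, scipy 1.17.1, pysam 0.24.0, matplotlib 3.10.9 and samtools 1.23.1 were used.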

Additional observations from a re-analysis of the deposited data

How the results depend on the processing

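Of 41 alternative values of the main counts and shares, 33 were within 1.5 times the count given or within the 95% interval of the share given. Among these were 13 genes (28.3%) with a peak in both replicates within 10000 bp of the TSS, beside 16.9% of coding genes. The main count was 18 (39.1%) beside 28.6%. Within 10000 bp the background of 16.9% lay just below the interval of 17.3% to 42.5%, unlike in the main setting. This is a description and not a test. Another was a heptamer in 24.0% of replicate 1 peaks with windows of 500 bp, in place of 16.0%. The share of all peaks with these wider windows is not given. All 34 alternative values of the best percentile of single genes were within 1 SD of the replicates. They came from leaving out unplaced contigs or keeping overlapped peaks only, which could hardly change the best peak of a gene. These values thus say little about stability. The largest change was for DERL1, from 77.7 to 67.3 with overlapped peaks only. Among peaks at or above the median score, 94.4% of replicate 1 peaks and 63.0% of replicate 2 peaks of the 46 genes were overlapped, and with lists of equal length 66.7% of those of replicate 2. The share of all peaks under these settings is not given, but overlap rose with the score over all peaks too. In the full lists 85.3% of all replicate 1 peaks and 39.6% of all replicate 2 peaks from percentile 50 to 75 were overlapped. From percentile 90 up the shares were 99.5% and 91.2%. By GENCODE assignment 13 genes (28.3%) had a promoter peak in both replicates, beside 15.0% of coding genes, in place of 6 (13.0%) beside 9.30%. Without replicate 2, 20 genes had a peak, beside 31.3% of coding genes, and 6 had a promoter peak, beside 11.9%. Without replicate 1 the counts were 31, beside 51.7%, and 15, beside 21.2%. Overlapping peaks need both lists and have no value without one. With the forkhead core in place of the heptamer, 52.0% of replicate 1 peaks and 42.9% of replicate 2 peaks held a match. The core includes the heptamer, so its share could not be lower. A count in a single list likewise could not fall below the count in both. The cause of the other shifts was not tested. No paired analysis was possible because the values used were peak lists of the FOXK2 libraries, and read counts of the inputs with the same replicate numbers were not analysed here. Both lists come from a single cell line and antibody, and the 12471 peaks of replicate 1 limit what can be found in both.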
